A study of Mus musculus with 8 samples.

Results

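The genes described here are 7 genes of insulin, insulin-like growth factor (IGF) and leptin signaling: Insr, Igf1r, Igf2r and Lepr, which encode receptors, Igf1, which encodes a ligand, and Irs1 and Irs2, which encode adaptor proteins. They were chosen by name, not by a measured value, and are 7 of the 32285 genes in the count matrices; all 7 had counts. RNA in nuclei was measured by 10x Multiome, an assay of RNA and open chromatin in the same nucleus, in striatum of 32 mice aged 12 weeks. There were 8 inbred strains with 4 mice each. NZO/HlLtJ, NOD/ShiLtJ, A/J, 129S1/SvImJ and C57BL/6 are classical inbred strains, and WSB/EiJ, PWK/PhJ and CAST/EiJ are wild-derived. The labels name no engineered allele or treatment, and each of 4 batches mixed nuclei from all strains, with a single mouse of each. NZO/HlLtJ is known as an obese strain and NOD/ShiLtJ as a diabetes-prone strain, and these were set beside the others to ask whether RNA of the signaling genes differed there. Body weight, blood glucose and insulin of these mice were not analysed here. Each batch held as many males as females, but the labels do not give the sex of a single mouse, and it was not modelled.

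Insulin and IGF1 bind receptor tyrosine kinases of 1 family, the insulin receptor (Insr) and the IGF1 receptor (Igf1r), which phosphorylate the adaptors IRS1 and IRS2 and so feed the PI3K-AKT and MAPK pathways. IGF2R binds IGF2 and lysosomal enzymes at the cell surface and carries them to lysosomes, without a kinase of its own, and its gene is imprinted in the mouse. The leptin receptor (Lepr) is a cytokine receptor that signals through JAK2 and STAT3, and in brain it is best known from the hypothalamus, the choroid plexus and vessels. Insulin and leptin receptors are also known to act on dopamine circuits that reach the striatum.

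The authors' annotation put 55672 nuclei into 18 clusters, from 15395 Drd1+ neurons and 13203 Drd2+ neurons (the projection neurons of the striatum) to 57 nuclei of a cluster named Unknown_2. Annotated nuclei held 43538698 counts in batch 3, the shallowest, and up to 77698312 in batch 2; the median per nucleus was 3232 to 4931 unique molecular identifiers (UMIs), each counting 1 captured RNA molecule. Batches shared 1517 barcode sequences, and nuclei were told apart by batch and barcode. Of 16 marker lists, those of Drd1 neurons (819 CPM, beside 638 CPM in the main Drd1+ cluster; 1 of 5 markers highest) and eccentric projection neurons (5 of 5) had their highest sums in the second Drd1+ cluster. That of mural cells was highest in endothelium, where Rgs5 was highest. The other 4 mural markers were highest in the cluster named Mural cells, which also held the second highest sum of Drd2 neuron markers. The cluster named Unknown carried the neuroblast markers (4 of 4 were highest there), and Unknown_2 carried the choroid plexus markers (4 of 4).

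Levels are given as CPM, counts scaled to 1000000 counts of the same mouse in the same cluster, for mice with at least 10 nuclei there. In RefSeq's GRCm38.p6 annotation the genes lie at chr1:82233105-82291439 (Irs1), chr4:101717137-101815352 (Lepr), chr7:67952257-68233668 (Igf1r), chr8:3150922-3279649 (Insr), chr8:10984681-11008929 (Irs2), chr10:87858265-87937047 (Igf1) and chr17:12682406-12769706 (Igf2r). Igf2r overlaps Airn, the non-coding RNA transcribed against it, over 28.4 kb, and the sources used here do not state whether reads were counted by strand, so reads of the pair cannot be told apart. Leprot, a gene whose protein is known to affect leptin receptor trafficking, ends 57.8 kb before Lepr starts in that table; the gene models used for counting are not given in the sources used here, and whether they let Lepr and Leprot share exons, and so reads, was not tested. The deposited list of accessible regions (291715 peaks) had 70 peaks that overlapped Igf1r, 29 Insr, 18 Igf2r, 8 Irs2, 7 each Irs1 and Igf1, and 5 Lepr. Accessibility per strain was not analysed here.

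Promoter windows of 300 bases (250 before a start site and 50 from it) were held by the RefSeq table for 6 of the 7 genes; Insr had no entry. Each overlapped a peak, as did 53.1% of all 32851 windows. The windows of Igf1r and Lepr are printed because these are the receptor genes with an entry whose strain term was called in both Drd1+ and Drd2+ neurons below. CG dinucleotides, searched as the letters CG (which read the same on both strands), are in capitals. Both genes lie on the plus strand. The peak over the Igf1r window spans chr7:67951393-67952392 while both Lepr windows lie in the peak chr4:101717088-101718087 (coordinates as deposited).
Igf1r, chr7:67952007-67952306: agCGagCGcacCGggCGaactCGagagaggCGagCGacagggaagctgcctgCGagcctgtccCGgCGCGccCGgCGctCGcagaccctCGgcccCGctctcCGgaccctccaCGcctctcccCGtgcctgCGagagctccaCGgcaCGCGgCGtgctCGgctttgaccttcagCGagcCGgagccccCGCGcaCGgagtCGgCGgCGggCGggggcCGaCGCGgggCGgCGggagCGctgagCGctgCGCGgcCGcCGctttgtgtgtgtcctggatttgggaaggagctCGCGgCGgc
Lepr, first window, chr4:101717157-101717456: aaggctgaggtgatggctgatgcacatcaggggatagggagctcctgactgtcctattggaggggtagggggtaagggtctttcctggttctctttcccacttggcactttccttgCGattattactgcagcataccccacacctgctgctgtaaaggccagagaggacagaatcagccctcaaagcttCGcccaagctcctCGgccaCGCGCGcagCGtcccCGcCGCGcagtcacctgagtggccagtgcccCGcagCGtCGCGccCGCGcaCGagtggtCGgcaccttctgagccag
Lepr, second window, chr4:101717656-101717955: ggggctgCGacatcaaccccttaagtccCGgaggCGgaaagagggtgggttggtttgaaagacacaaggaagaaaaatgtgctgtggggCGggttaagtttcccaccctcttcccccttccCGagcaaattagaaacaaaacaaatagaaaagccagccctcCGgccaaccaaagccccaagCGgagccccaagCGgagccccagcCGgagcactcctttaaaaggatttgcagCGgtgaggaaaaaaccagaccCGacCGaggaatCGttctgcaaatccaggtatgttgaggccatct
The Igf1r window holds 48 CG dinucleotides, and 1.22% of all windows hold as many; the median window holds 7. Irs2 followed with 41, Igf2r with 34 and Irs1 with 28, whereas the Lepr windows hold 18 and 13 and the Igf1 window 6, a count that 56.4% of windows reach. As many CG as in the Lepr windows were held by 29.7% and 37.9% of windows. These counts describe the letters and were not tested against any level.

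Among the receptors, Igf1r was detected in every cluster and was highest in endothelium, at 1664 ± 498 CPM (SD, n = 29 mice). The cluster named Unknown followed with 888 ± 147 CPM (n = 26) and Slc17a7+ neurons with 388 ± 60.1 CPM (n = 20), and each of these 3 gaps to the next cluster with at least 3 mice was larger than the larger of the 2 SDs. Fibroblasts, with too few mice for an SD, stood between Slc17a7+ neurons and astrocytes at 343 CPM from 87 pooled counts (exact Poisson interval 275 to 423). Astrocytes (324 ± 54.2 CPM), oligodendrocytes (299.8 ± 54.2 CPM), ependyma (298 ± 131 CPM, n = 12) and macrophages (297 ± 66.3 CPM) did not differ beyond their spread. Drd1+ neurons stood at 162 ± 20.7 CPM and Drd2+ neurons at 156 ± 17.4 CPM (n = 32 each), and Chat+ interneurons, the cholinergic cells, were lowest at 90.6 ± 39.8 CPM (n = 3). Clusters were made from these nuclei, so levels across clusters are a description with no test.

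Among clusters with enough mice Insr was more even, from 231 ± 82.2 CPM in endothelium to 75.0 ± 19.1 CPM in Chat+ interneurons, and no gap between neighbouring clusters exceeded the larger SD. Unknown held 169 ± 57.8 CPM, macrophages 140 ± 37.8 CPM, oligodendrocytes 133 ± 19.5 CPM, and Drd1+ and Drd2+ neurons 78.3 ± 9.63 and 77.7 ± 10.2 CPM. Endothelium was above Unknown in 22 of the 24 mice with both.

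Igf2r was highest in Mural cells (79.4 ± 56.8 CPM, n = 20) and ependyma (68.2 ± 25.8 CPM, n = 12), which did not differ beyond their spread, and lowest in macrophages (4.73 ± 5.76 CPM). Drd1+ neurons held 19.4 ± 3.85 CPM and Drd2+ neurons 17.97 ± 3.27 CPM. Over the 18 clusters its log2(CPM + 1) correlated most with that of Airn (Pearson r 0.94), the antisense neighbour whose reads may be shared with it.

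Lepr was near 0 in most clusters and high in a few small ones. Its mean in Chat+ interneurons was 55.9 ± 27.7 CPM over 3 mice (27.6 CPM in the 1 mouse outside batch 2). Of all 120 Chat+ nuclei, 22.5% held a UMI of it (95% Wilson interval 15.9 to 30.8%, median 8371 UMIs per nucleus). Unknown_2 stood at 98.7 CPM from 20 pooled counts (exact Poisson interval 60.3 to 152) and fibroblasts at 59.1 CPM from 15 counts (33.1 to 97.5); these intervals cover counting error only. Endothelium followed with 26.5 ± 27.8 CPM (n = 29; 9.87% of nuclei with a UMI) and the second Slc17a7+ cluster with 16.2 ± 24.9 CPM (n = 16). In projection neurons it was 3.33 ± 2.17 CPM (Drd1+) and 2.79 ± 1.93 CPM (Drd2+), against 1.47 ± 1.77 CPM in oligodendrocytes and 1.09 ± 4.03 CPM in macrophages. A UMI of Lepr was seen in 2.06% of Drd1+ nuclei at a median of 6505 UMIs and in 0.265% of oligodendrocyte nuclei at 1640 UMIs.

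Nuclei of all clusters can carry free RNA, and Ttr, a choroid plexus marker counted in every cluster, was used to gauge that of choroid plexus. Within Unknown_2 the Lepr count was 0.277% of the Ttr count. The same share was 5.81% in Drd1+ neurons, 5.30% in Drd2+ neurons, 34.5% in endothelium and 102% in Chat+ interneurons. These clusters held more Lepr per Ttr than Unknown_2. Macrophages at 0.352%, astrocytes at 0.456% and oligodendrocytes at 0.802% were nearer to it. Fibroblasts stood at 37.5%, and the first and second Slc17a7+ clusters at 17.3% and 33.6%. Ttr does not gauge free RNA from such other clusters with Lepr, and the part of free RNA in the Lepr values was not tested.

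The ligand Igf1 was highest in interneurons marked by Nxph1, with 49.4 ± 33.9 CPM in 32 mice, against 5.53 ± 8.98 CPM in macrophages, the next cluster with enough mice. The Nxph1+ level was higher in 28 of 32 mice. Of Nxph1+ nuclei, 11.3% held an Igf1 UMI (9.64 to 13.2%), against 0.130% of Drd1+ and 0.0414% of oligodendrocyte nuclei. Fibroblasts (35.5 CPM from 9 counts, 16.2 to 67.3) and Unknown_2 (29.6 CPM from 6 counts, 10.9 to 64.5) were the other clusters with a level above 10 CPM. No Igf1 count was seen in Mural cells, ependyma or the cluster Polydendrocyte/Oligodendrocyte, where 3 counts would have been 2.28, 2.50 and 1.54 CPM.

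The adaptors were placed differently from each other. Irs1 was highest among clusters with enough mice in Polydendrocyte/Oligodendrocyte (125 ± 80.3 CPM, n = 27) and astrocytes (57.1 ± 17.1 CPM). It reached 189 CPM in fibroblasts (48 counts, 139 to 251). Unknown_2 also held Irs1, at more counts than Lepr (0.457% and 0.277% of its Ttr count). The pooled Irs1 level there lay between those of fibroblasts and Polydendrocyte/Oligodendrocyte. Irs1 was lowest in Drd1+ and Drd2+ neurons (2.32 ± 1.26 and 1.83 ± 1.43 CPM). Macrophages were about as low, with strain means of 0 to 7.13 CPM from 0 to 5 counts each. Irs2 was highest in oligodendrocytes (55.5 ± 16.8 CPM), where it was above Unknown (30.6 ± 36.4 CPM) in 22 of 26 mice, while Unknown_2 stood near them at 54.3 CPM from 11 pooled counts. In projection neurons it was 14.1 ± 4.05 CPM (Drd1+) and 12.2 ± 4.57 CPM (Drd2+).

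**Figure D1:**
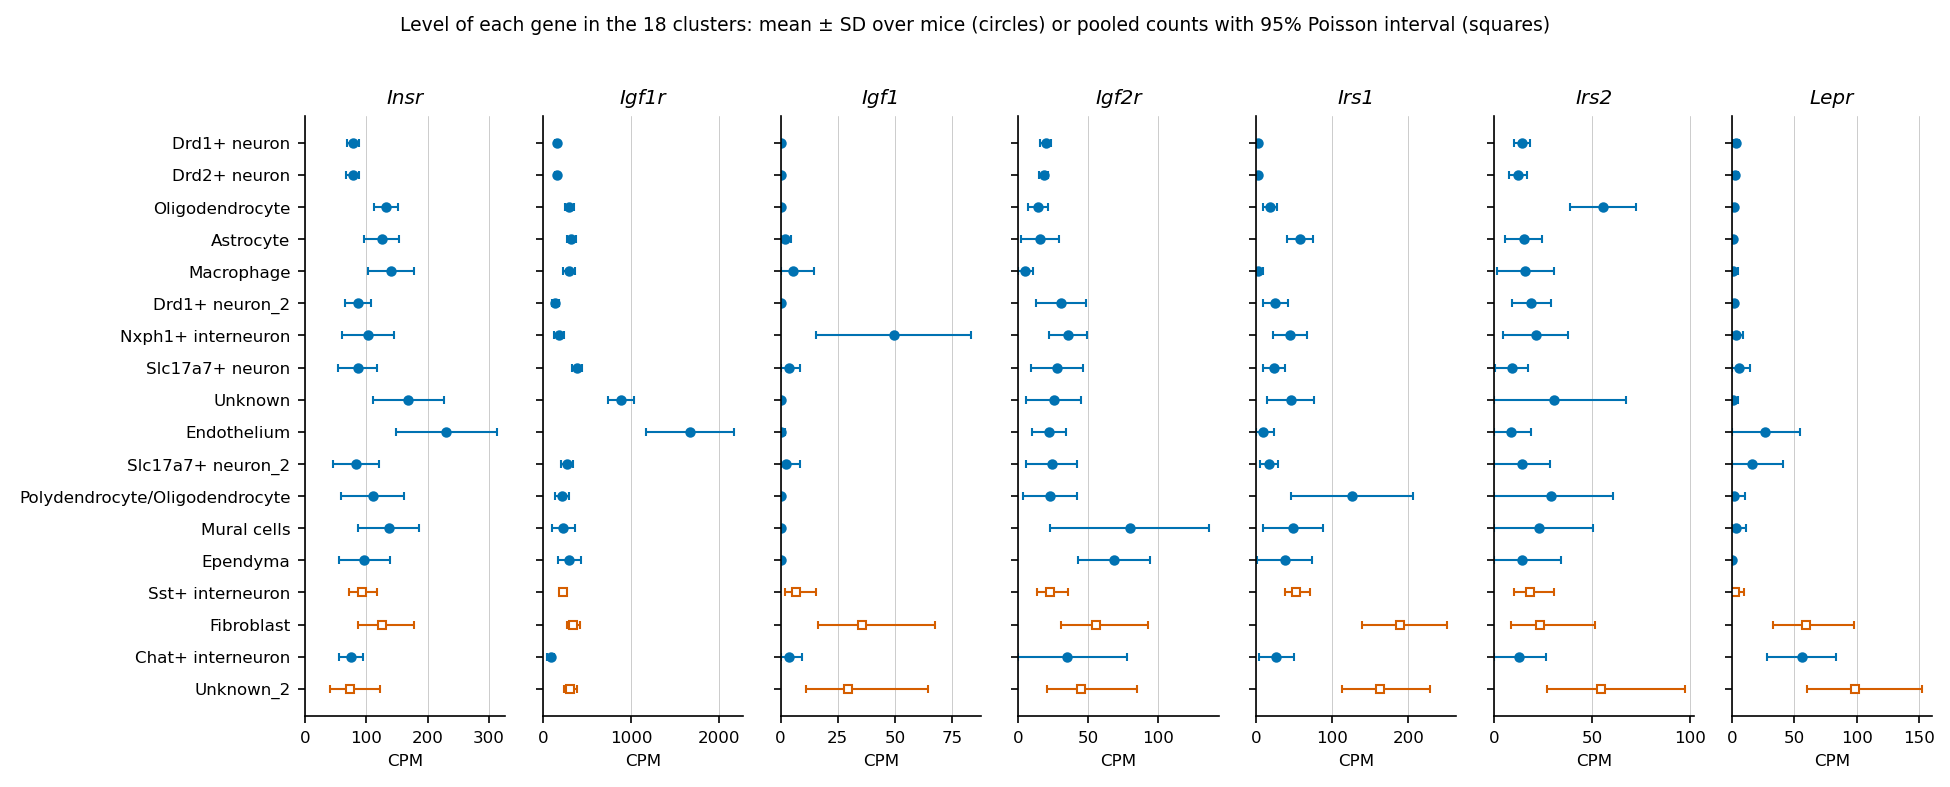
Level in CPM of the 7 genes (columns, separate axes) in the 18 clusters (rows); circles are means ± SD over mice with at least 10 nuclei, squares are pooled counts with 95% Poisson intervals for the clusters in which too few mice had 10 nuclei, and bars end at 0. Igf1r and Insr are highest in endothelium, Igf1 in Nxph1+ interneurons, Irs2 in oligodendrocytes, and Lepr in Unknown_2, fibroblasts and Chat+ interneurons.

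The genes whose levels over the 18 clusters were most like each member, by Pearson's r of log2(CPM + 1) among 15711 genes, were Tubb5 (0.93), Nol7 (0.93) and H2afz (0.93) for Insr and Znrd1 (0.87), Snrpd3 (0.85) and Pcna (0.85) for Igf1r. For Lepr they were Abca4 (0.92), Txnl1 (0.86) and Gm20559 (0.82), for Irs1 Cuedc1 (0.83), Steap2 (0.82) and Plod2 (0.81), and for Irs2 4930511M06Rik (0.85), Slc20a2 (0.84) and Daam1 (0.81). Igf1 was most like Lrrc38 (0.85), Fam199x (0.83) and Lrrc29 (0.83), and after Airn Igf2r was most like Gm49959 (0.87) and Dsel (0.81). The 18 points share libraries and differ in depth, so these values are descriptions.

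Strain differences were tested on counts summed per mouse and cluster with edgeR's quasi-likelihood test, with batch as the block, in the 9 clusters with at least 3 mice of every strain. A gene counts as called at a Benjamini-Hochberg adjusted p under 0.05 over all genes tested in the cluster, and all adjusted p-values below are from this test. All 7 genes passed the filter on low counts in the sum of all nuclei, but 6 did in Drd1+ neurons (not Igf1) and 2 to 5 in the other clusters. The counts below are therefore over tested pairs of gene and cluster and not over all members. In the sum of all nuclei, fewer nuclei of a type and less RNA per nucleus cannot be told apart; within a cluster CPM are relative to the cluster's RNA.

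The strain term was called in 11 of 32 tested pairs. In Drd1+ neurons 4 of 6 genes were called, Igf1r (adjusted p = 7.74e-08), Insr (1.34e-05), Lepr (2.25e-04) and Irs2 (0.00171), where 61.7% of all genes tested were called. In Drd2+ neurons 3 of 5 were called, Lepr (1.70e-05), Igf1r (3.92e-04) and Insr (0.00481; 0.0563 without batch 1 and 0.164 without batch 2), against 55.9% of all genes. In oligodendrocytes 3 of 5 were called, Igf1r (3.08e-08), Irs2 (0.00252; 0.0502 without batch 4) and Irs1 (0.0126; 0.140 without batch 2 and 0.188 without batch 4), against 34.8%. In astrocytes 1 of 3 was called, Igf1r (0.00512; 0.139 without batch 2 and 0.132 without batch 4), against 21.5%. No member was called in macrophages (0 of 2, background 24.7%), the second Drd1+ cluster (0 of 3, 17.5%), Nxph1+ interneurons (0 of 3, 1.4%), endothelium (0 of 2, 3.29%) or Polydendrocyte/Oligodendrocyte (0 of 3, 1.24%). At an unadjusted p under 0.05, Insr would have been counted in macrophages, Igf2r in the second Drd1+ cluster, and Igf1r and Igf1 in Nxph1+ interneurons. In the sum of all nuclei 5 of 7 were called (Insr, Igf1r, Lepr, Irs1 and Igf2r, the last not without batch 3 or 4, at 0.0728 and 0.0637, nor with thinned libraries, at 0.199), where 66.7% of all genes were. Without the batch block Igf1r and Irs1 were not called there (adjusted p = 0.338 and 0.148). The members' shares were thus near those of all genes in Drd1+ and Drd2+ neurons. With every library of a cluster thinned to the counts of its shallowest mouse, 21 pairs passed the filter and the called ones were Igf1r, Insr and Lepr in Drd1+ neurons, 3 in place of 11. For NZO/HlLtJ below, Igf1r in both neuron clusters was then called, and for NOD/ShiLtJ no pair was.

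Igf1r in Drd1+ neurons was highest in NZO/HlLtJ, whose mice of batches 1 to 4 stood at 201, 195, 177 and 196 CPM (192 ± 10.9, SD, n = 4). Next came 129S1/SvImJ (180 ± 16.4), WSB/EiJ (171 ± 8.75) and C57BL/6 (169 ± 16.7), then NOD/ShiLtJ (153 ± 2.04), A/J (152 ± 10.1) and CAST/EiJ (145 ± 7.82), and PWK/PhJ was lowest with 140, 147, 129 and 126 CPM (135 ± 9.93). The 4 NZO/HlLtJ mice lay above all mice of NOD/ShiLtJ, A/J, CAST/EiJ and PWK/PhJ and overlapped the other 3 strains. Against the mean of the other 7 strains, Igf1r was higher in NZO/HlLtJ by 0.28 ± 0.05 on the log2 scale (SE, adjusted p = 6.23e-05). In Drd2+ neurons NZO/HlLtJ was again highest, with 178, 196, 169 and 180 CPM against 118 to 200 (median 154) in the other 28 mice. That difference was 0.25 ± 0.06 (adjusted p = 0.00187), and all 4 mice were above the median of their batch in both clusters. Without batch 2 the Drd2+ difference was 0.20 with an adjusted p of 0.0720, while the Drd1+ difference was called under all 11 alternatives tried (0.21 to 0.31). The summed markers of endothelium, where Igf1r was highest, were in Drd1+ libraries 16.2 to 21.1 CPM in NZO/HlLtJ and 9.82 to 23.5 CPM elsewhere, with none of the 5 at 0. Their part in the result was not tested.

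Insr, the receptor of insulin itself, differed less. Its Drd1+ levels in NZO/HlLtJ were 85.4, 101, 81.0 and 85.3 CPM (88.0 ± 8.55). The other strains stood at 86.1 ± 3.79 in C57BL/6, 86.1 ± 9.01 in A/J, 79.3 ± 6.35 in NOD/ShiLtJ, 76.1 ± 9.99 in WSB/EiJ, 75.8 ± 1.82 in CAST/EiJ, 68.5 ± 2.85 in 129S1/SvImJ and 66.8 ± 5.40 in PWK/PhJ. The 3 highest strain means thus lay within 2 CPM of each other. Insr in NZO/HlLtJ was higher than the mean of the other 7 by 0.19 ± 0.06 (adjusted p = 0.0280). Of 11 alternatives 8 ended that call, among them DESeq2 (adjusted p = 0.0585) and comparison with the classical inbred strains only (0.12, adjusted p = 0.245). So did leaving out batch 1 (adjusted p = 0.0778), batch 2 (0.233) or batch 4 (0.0645). In endothelium, where Insr was highest, the 4 NZO/HlLtJ mice ranged from 99.8 to 235 CPM and the other 25 from 79.9 to 451 CPM, and the difference of -0.52 was not called (adjusted p = 0.578).

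Lepr ran the other way in NZO/HlLtJ. Its Drd1+ levels there were 2.05, 0.863, 1.19 and 1.64 CPM, from 8, 2, 4 and 4 counts, against 0.309 to 9.97 CPM (median 3.53) in the other 28 mice. All 4 were below the median of their batch and inside the range of the other mice. The difference was -1.09 ± 0.40 (adjusted p = 0.0459), and it was not called when any 1 batch was left out (adjusted p = 0.0673 without batch 1, 0.117 without batch 2, 0.157 without batch 3 and 0.104 without batch 4). In Drd2+ neurons NZO/HlLtJ stood at 0.950, 1.09, 2.23 and 2.45 CPM, and the difference of -0.61 ± 0.36 was not called (adjusted p = 0.259). Summed choroid plexus markers in Drd1+ libraries were 19.4 to 103 CPM in NZO/HlLtJ and 15.2 to 265 CPM (median 36.4) elsewhere, with 1 of 4 markers at 0 in NZO/HlLtJ, and their part in the Lepr values was not tested. The neighbouring Leprot was higher in NZO/HlLtJ, by 0.56 ± 0.11 in Drd1+ neurons (adjusted p = 2.49e-04; 20.5 ± 2.72 CPM against 14.9 ± 6.11) and by 0.48 ± 0.14 in Drd2+ neurons (adjusted p = 0.0122). The first was not called with thinned libraries (0.31, adjusted p = 0.262), and the second not with them (0.12, 0.869) nor without batch 1 or 3 (0.0677 and 0.126).

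Among the adaptors, Irs2 was higher in oligodendrocytes of NZO/HlLtJ, with 107, 57.2, 71.9 and 62.4 CPM (74.6 ± 22.4) against 24.2 to 87.0 CPM (median 51.6) in the other 28 mice. The mouse of batch 1 lay above all others, and the remaining 3 lay within the range of the other strains. The difference was 0.51 ± 0.14 (adjusted p = 0.0112), and without batch 1 it was 0.34 with an adjusted p of 0.292. Against the classical inbred strains only, it was 0.38 (adjusted p = 0.120). In Drd2+ neurons Irs2 was 16.8, 14.2, 17.5 and 19.6 CPM in NZO/HlLtJ, the highest strain mean (16.99 ± 2.23), but the difference of 0.59 was not called (adjusted p = 0.148). Irs1 was low in the main projection neuron clusters, at 3.07 ± 0.938 CPM in Drd1+ neurons of NZO/HlLtJ and 2.21 ± 1.28 CPM in the other strains.

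Igf1 was tested within a cluster only in Nxph1+ interneurons, where NZO/HlLtJ was the lowest strain with 8.28, 11.2, 19.1 and 40.7 CPM (19.8 ± 14.7), from 3, 9, 2 and 5 counts. The other strains ranged from 33.4 ± 20.1 CPM in A/J to 80.7 ± 49.7 CPM in CAST/EiJ, and single mice of 4 of them (A/J, C57BL/6, CAST/EiJ and PWK/PhJ) also fell under 15 CPM. The difference of -1.63 ± 0.54 was not called (unadjusted p = 0.00431, adjusted p = 0.212). NZO/HlLtJ had 305 Nxph1+ nuclei and the other strains 105 to 171. An Igf1 UMI was held by 12 of the 305 nuclei (3.93%, 2.26 to 6.75%) and by 126 of the 917 nuclei of the other strains (13.7%). Such nuclei held 1.58 and 1.52 Igf1 UMIs each, and median depths of all these nuclei were 4358 and 4210 UMIs. The shares pool nuclei over mice, so the interval leaves out the spread between mice, and they are a description. Of the 305 nuclei 169 came from the mouse of batch 2, and the NZO/HlLtJ mouse with the fewest, 28, had the highest level. In other strains low levels were seen in mice with many and with few Nxph1+ nuclei. The PWK/PhJ mouse of batch 4, with 75 nuclei, stood at 4.95 CPM beside 48.3 to 98.0 CPM in its other mice, and the NOD/ShiLtJ mouse of batch 1, also with 75, was the lowest of its strain at 21.7 CPM. The A/J mouse of batch 2 had the most nuclei outside NZO/HlLtJ, 87, and was not the lowest of its strain. It stood at 28.7 CPM beside 14.99 to 62.1 CPM in the other A/J mice. The C57BL/6 mouse of batch 2, with 18 nuclei, stood at 11.8 CPM. The CAST/EiJ mouse of batch 4, with 29 nuclei, stood at 14.9 CPM. The part of the number of nuclei was not tested. Among interneuron genes looked at after the Igf1 values were seen, Pthlh stood at 24.3 CPM in NZO/HlLtJ and 56.5 elsewhere, Pvalb at 9.36 and 23.5, Nxph1 at 2465 and 3211, Kit at 167 and 252, and Sst at 112 and 149.6. Lhx6 (25.1 and 30.3) and Npy (35.5 and 39.4) were closer, and Th stood at 6.36 and 10.1. These values are means. For Sst, Lhx6, Npy and Th the median of the other mice (89.9, 21.7, 29.3 and 6.04 CPM) was below the NZO/HlLtJ mean. For Pthlh, Pvalb, Nxph1 and Kit it was above. Calb2 (15.7 and 5.91) and Chat (2.49 and 1.11) were higher in NZO/HlLtJ, and Vip was at 0 there and at 7.45 elsewhere. The ranges over mice overlapped for all 11 genes. The part of a changed mix of interneurons was not tested.

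Over the 9 clusters, NZO/HlLtJ differed from the mean of the other 7 strains in 5 of 32 tested pairs (2 without batch 1, 3 without batch 2). These were 3 of 6 in Drd1+ neurons (Igf1r, Insr and Lepr; 19.7% of all genes tested were called), 1 of 5 in Drd2+ neurons (Igf1r; 18.5%) and 1 of 5 in oligodendrocytes (Irs2; 8.19%). No pair was called in astrocytes (background 4.8%), macrophages (5%), the second Drd1+ cluster (3.21%), Nxph1+ interneurons (0.652%), endothelium (0.0602%) or Polydendrocyte/Oligodendrocyte (0%). At an unadjusted p under 0.05 there was 1 pair each in astrocytes, the second Drd1+ cluster, Nxph1+ interneurons and endothelium and 0 in the other clusters named. In the clusters with a call, Irs2 in Drd2+ neurons and Igf1r and Igf2r in oligodendrocytes were also at an unadjusted p under 0.05 but not called. In the sum of all nuclei 2 of 7 were called, Igf1r at 0.18 (adjusted p = 0.00578) and Irs2 at 0.32 (adjusted p = 0.0432), where 23.2% of all genes were. Igf1r was not called there without batch 2 (0.0619) or without the batch block (0.205), nor Irs2 when any 1 batch was left out (0.0673 to 0.110) or without the block (0.0586). Lepr missed the threshold at -0.64 (adjusted p = 0.0504).

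NOD/ShiLtJ, the diabetes-prone strain, differed in 2 of 32 pairs (0 without batch 2). In Drd1+ neurons Irs2 stood at 22.2, 21.2, 18.7 and 17.3 CPM (19.9 ± 2.24), against 7.17 to 19.0 CPM (median 13.8) in the other 28 mice. The mice of batches 1 and 2 lay above all other mice, and NOD/ShiLtJ was the highest strain. The difference was 0.58 ± 0.16 (adjusted p = 0.00752), and without batch 2 it was 0.59 with an adjusted p of 0.0717. In Drd2+ neurons NOD/ShiLtJ was not the highest, with 7.93, 11.2, 7.26 and 16.6 CPM of Irs2, and the difference between the 2 clusters in this contrast was not called (-0.72 ± 0.22, adjusted p = 0.105). Oligodendrocytes had the highest Irs2, and their summed markers in the Drd1+ libraries were 1152 to 1271 CPM in NOD/ShiLtJ and 974.6 to 1402 CPM elsewhere; their part in the result was not tested.

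Igf1r was lowest in NOD/ShiLtJ in Drd2+ neurons, with 155, 132, 118 and 141 CPM (137 ± 15.6) against 128 to 200 CPM (median 157) in the other mice. All 4 were below the median of their batch, and 1 mouse lay under all others. The difference was -0.23 ± 0.06 (adjusted p = 0.00936), and it was not called without batch 2 (adjusted p = 0.0735) or batch 3 (0.0938). In Drd1+ neurons the NOD/ShiLtJ mice lay closely together, at 152, 151, 156 and 155 CPM, in the middle of the strains. The count of calls for NOD/ShiLtJ was 1 of 6 in Drd1+ neurons (15.9% of all genes) and 1 of 5 in Drd2+ neurons (12.1%). It was 0 in oligodendrocytes (9.36%), astrocytes (3.96%), macrophages (5.62%), the second Drd1+ cluster (1.97%), Nxph1+ interneurons (0.0752%), endothelium (0.221%) and Polydendrocyte/Oligodendrocyte (0.333%). Of the last 7, only oligodendrocytes had pairs at an unadjusted p under 0.05 (2). In the sum of all nuclei only Igf1r was called (-0.15, adjusted p = 0.0285; 20.1% of all genes), and not without batch 1, 2 or 4 (adjusted p = 0.190, 0.122 and 0.0942) or without the batch block (0.334). The NZO/HlLtJ and NOD/ShiLtJ comparisons share the libraries of the other strains, and each strain is also part of the other's comparison.

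**Figure D2:**
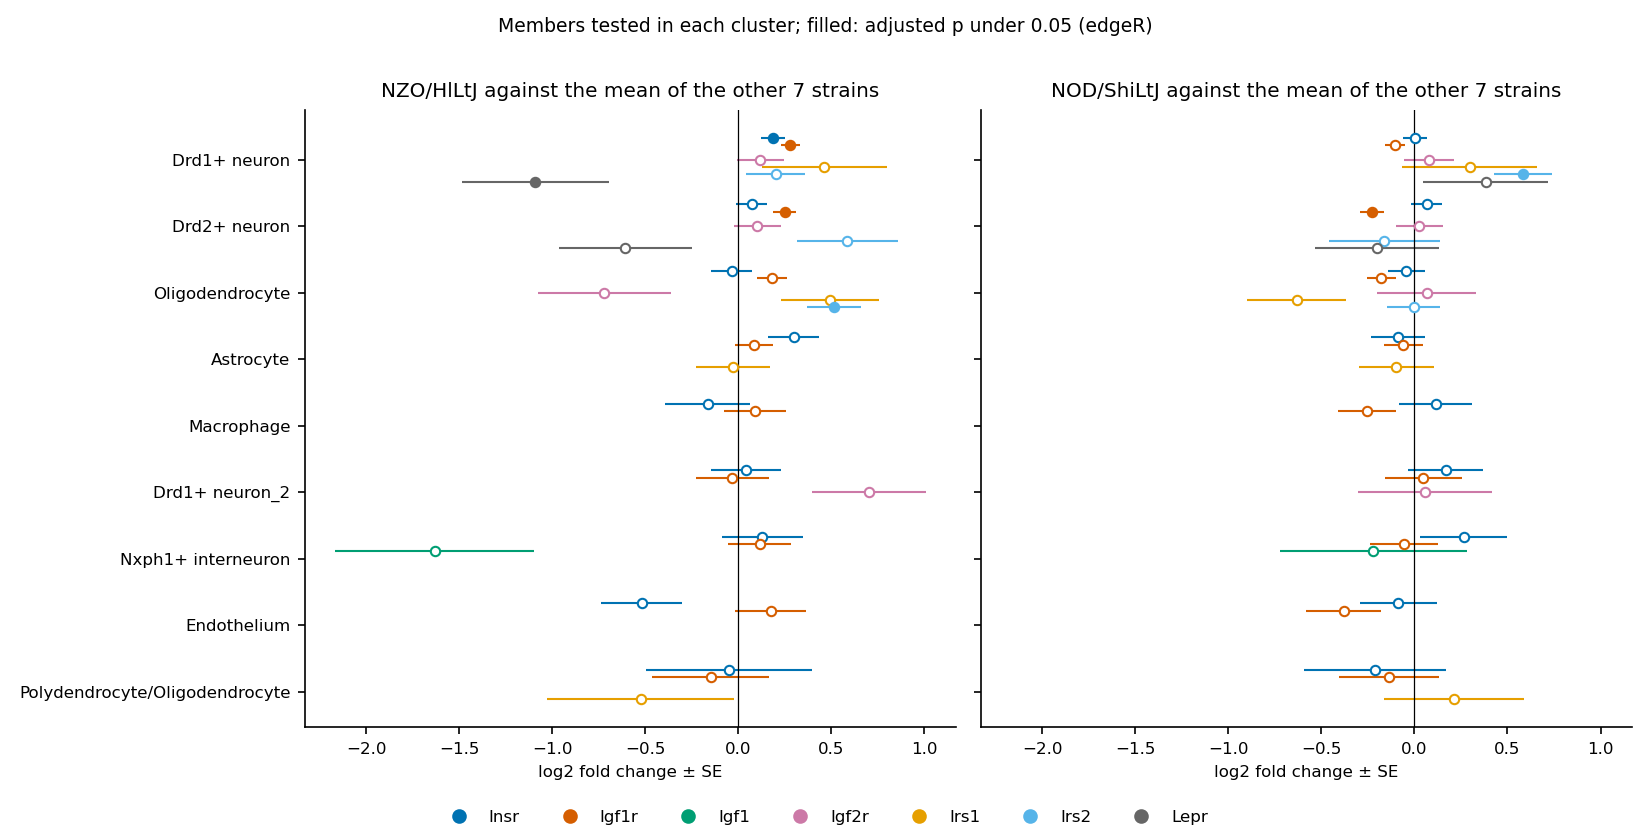
Log2 fold change ± SE of each tested gene (colours) in the 9 clusters (rows), for NZO/HlLtJ (left) and NOD/ShiLtJ (right) against the mean of the other 7 strains; filled circles had an adjusted p under 0.05. The 5 filled points of NZO/HlLtJ are Insr, Igf1r and Lepr in Drd1+ neurons, Igf1r in Drd2+ neurons and Irs2 in oligodendrocytes, and the 2 of NOD/ShiLtJ are Irs2 in Drd1+ and Igf1r in Drd2+ neurons.

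The other strains gave larger differences for several of these genes than NZO/HlLtJ or NOD/ShiLtJ did. PWK/PhJ, a wild-derived strain, was called in 4 of 6 genes in Drd1+ neurons, where 34.4% of all genes were. Its Igf1r was lower by a log2 difference of -0.34 ± 0.05 (adjusted p = 2.83e-06) and its Insr by -0.31 ± 0.07 (2.25e-04), both called under all 10 alternatives, and its Lepr was higher by 1.05 ± 0.28 (0.00296; 0.108 without batch 2). Igf2r, at 18.4, 27.1, 20.5 and 29.9 CPM, was higher by 0.31 ± 0.12 (0.0476), but was not called without batch 2 (adjusted p = 0.237) or batch 4 (0.401). The strain term of Igf2r was not called in Drd1+ neurons (adjusted p = 0.137). Airn, its antisense neighbour, rose in PWK/PhJ (19.7 ± 1.28 CPM, 0.67) and CAST/EiJ (18.5 ± 2.46 CPM, 0.62) beside 8.90 ± 2.10 CPM in C57BL/6, with an adjusted p of the strain term of 2.67e-07.

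Lepr in Drd2+ neurons was 5.26, 8.12, 6.89 and 7.16 CPM in PWK/PhJ (6.86 ± 1.19), from 14, 17, 11 and 16 counts, and these 4 mice lay above all other 28. A/J followed with 3.33, 4.26, 4.14 and 4.51 CPM (4.06 ± 0.509), and the remaining 6 strains had means of 1.43 to 2.49 CPM. Lepr was higher in PWK/PhJ by 1.61 ± 0.25 (adjusted p = 1.76e-06), called under all 9 alternatives, and in A/J by 0.82 ± 0.25 (adjusted p = 0.0165), not called without batch 1, 2 or 4 (adjusted p = 0.0513, 0.0597 and 0.0825). In Drd1+ neurons PWK/PhJ stood at 5.20, 9.97, 3.49 and 4.22 CPM and A/J at 9.45, 3.61, 5.66 and 3.97 CPM. Lepr was higher there in A/J by 1.05 ± 0.25 (adjusted p = 0.00223). In each case 1 batch carried much of the difference. Without batch 1 that of A/J was 0.64 (adjusted p = 0.186) and without batch 2 that of PWK/PhJ was 0.65 (adjusted p = 0.108). CAST/EiJ was as low as NZO/HlLtJ in Drd1+ neurons, with 1.02, 0.309, 1.63 and 3.27 CPM, and its difference of -1.17 ± 0.41 (adjusted p = 0.0244) was not called without batch 1 (0.165) or 2 (0.201). Summed choroid plexus markers in Drd1+ libraries were 20.5 to 265 CPM in PWK/PhJ and 29.3 to 97.8 CPM in A/J. Summed oligodendrocyte markers, 1327 to 1402 CPM in PWK/PhJ, were above all other mice (974.6 to 1308 CPM). Their part in the Lepr values was not tested.

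Insr was higher in A/J, by 0.21 ± 0.06 in Drd1+ neurons (adjusted p = 0.00780; 0.229 without batch 1 and 0.0590 without batch 2) and by 0.27 ± 0.08 in Drd2+ neurons (adjusted p = 0.00930; 0.144 without batch 2). Irs2 was lowest in A/J in Drd1+ neurons, with 7.80, 9.77, 10.96 and 9.44 CPM, a difference of -0.59 ± 0.16 (adjusted p = 0.00596; 0.115 without batch 2). In Drd1+ neurons A/J was called in 3 of 6 genes (17.2% of all genes) and 129S1/SvImJ in 2 (Igf1r 0.20, adjusted p = 0.00564, and Insr -0.19, 0.0379; background 12.3%). C57BL/6 was called in 1 (Insr 0.19, 0.0284; 13.9%), CAST/EiJ in 2 (Igf1r -0.15, 0.0243, and Lepr; 32.8%) and WSB/EiJ in 0 (16.9%; 1 at an unadjusted p under 0.05). Leaving out single batches ended each of the 129S1/SvImJ, C57BL/6 and CAST/EiJ calls. Igf1r was not called in 129S1/SvImJ without batch 1 (adjusted p = 0.0514) or 4 (0.158), nor in CAST/EiJ without batch 1, 2 or 3 (0.0833, 0.115 and 0.0812). Insr was not called in 129S1/SvImJ when any 1 batch was left out (0.0513 to 0.186), nor in C57BL/6 without batch 1, 3 or 4 (0.134, 0.120 and 0.144). In Drd2+ neurons A/J was called in 2 of 5 genes (Lepr and Insr; 15.2%) and PWK/PhJ in 2 of 5 (Lepr, and Insr at -0.30, adjusted p = 0.00612; 30.3%), the latter not without batch 4 (0.0650).

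**Figure D3:**
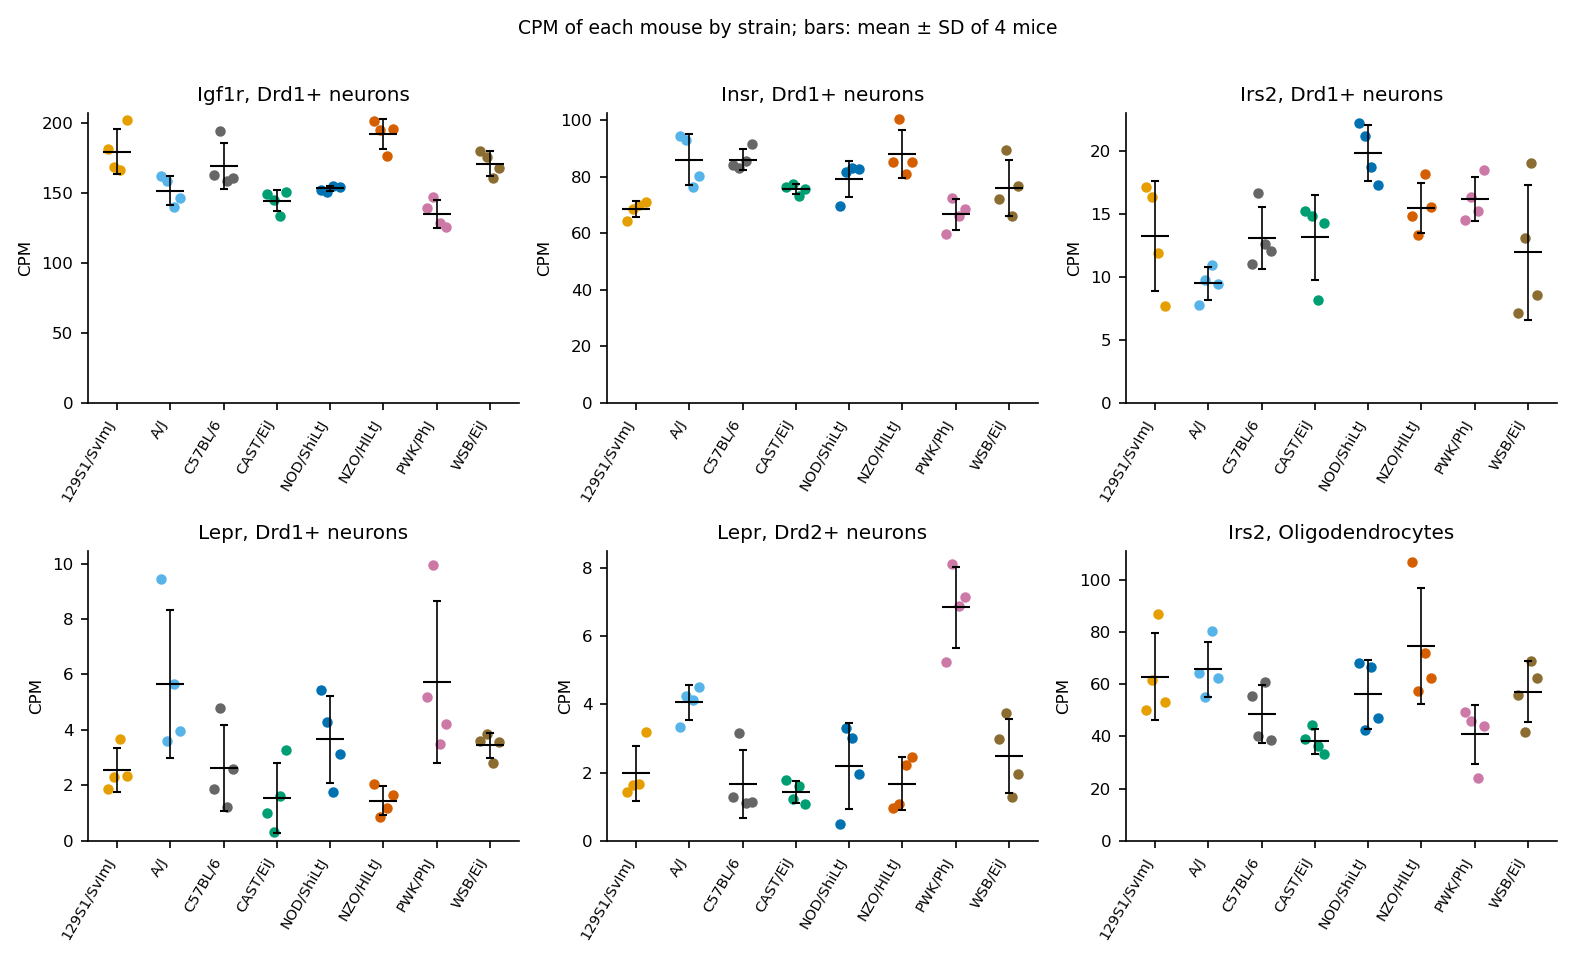
CPM of each of the 32 mice (points, 4 per strain, in batch order from left to right) with the strain mean ± SD (bars) for 6 pairs of gene and cluster. NZO/HlLtJ is highest for Igf1r and among the lowest for Lepr in Drd1+ neurons, NOD/ShiLtJ is highest for Irs2 in Drd1+ neurons, and the 4 PWK/PhJ mice lie above all others for Lepr in Drd2+ neurons.

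The strain order of Igf1r depended on the cell type. In oligodendrocytes PWK/PhJ, the lowest strain in Drd1+ neurons, was highest with 423, 386, 308 and 443 CPM (390 ± 59.3). It was followed by CAST/EiJ (343, 355, 352 and 357 CPM, 352 ± 6.26) and NZO/HlLtJ (325 ± 20.4), while 129S1/SvImJ, the second highest in Drd1+ neurons, was lowest (255 ± 19.7). Igf1r was higher there in PWK/PhJ by 0.48 ± 0.08 (adjusted p = 9.40e-07; 15.7% of all genes were called in this contrast). With thinned libraries the PWK/PhJ difference was 0.49 and not called (adjusted p = 0.396). Igf1r was higher in CAST/EiJ by 0.26 ± 0.08 (adjusted p = 0.0146; 17%), which was not called without batch 1, 2 or 4 (0.0553, 0.0561 and 0.0855). In astrocytes CAST/EiJ was highest (459, 399, 366 and 427 CPM, 413 ± 39.7) by 0.42 ± 0.11 (adjusted p = 0.00348; 9.64%), with an adjusted p of 0.0653 without batch 1. A/J was lowest there (327, 259, 258 and 183 CPM) by a difference of -0.35 ± 0.11 (0.0419; 3.16%), not called without batch 2, 3 or 4 (0.155, 0.0506 and 0.682). With every astrocyte library thinned to 38252 counts both differences reversed, to -0.98 in CAST/EiJ and 0.16 in A/J, and neither was called. NZO/HlLtJ was not called for Igf1r in either glial cluster. Its difference was 0.18 ± 0.08 in oligodendrocytes (unadjusted p = 0.0246, adjusted p = 0.169) and 0.08 ± 0.10 in astrocytes (adjusted p = 0.796).

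The difference of strain effects between cell types was tested as an interaction with the mouse as a block. For Igf1r it was called between Drd1+ neurons and oligodendrocytes (adjusted p = 2.11e-07; 16.7% of all genes were called) and between Drd1+ neurons and astrocytes (adjusted p = 0.00136, and 0.0807 without batch 2; 11.4%). It was not called between Drd1+ and Drd2+ neurons (adjusted p = 0.319; 0 of the members called, 4.55% of all genes; Igf1r and Irs2 at an unadjusted p under 0.05). Irs2 was called for oligodendrocytes (9.29e-04, and 0.0532 without batch 4) and Irs1 for astrocytes (0.0471; 0.112, 0.278 and 0.334 without batch 1, 3 or 4). These were 4 of the 15 pairs whose gene passed the filter on low counts in both clusters. The fits held 7 further pairs whose gene passed through 1 cluster, among them Irs2 in macrophages, and those are not read as differences between cell types; over all 22 pairs the count of calls was 5, and 3 without batch 2 or without batch 4. In macrophages 0 of the 2 members that passed in both were called (8.15% of all genes; 0 at an unadjusted p under 0.05). No interaction of a member with NZO/HlLtJ alone or with NOD/ShiLtJ alone was called. Of all genes, 0.703%, 3.29%, 2.11% and 0.973% were called for NZO/HlLtJ with Drd2+ neurons, oligodendrocytes, astrocytes and macrophages, and 0.972%, 3.16%, 1.56% and 1.08% for NOD/ShiLtJ, so no call among a few members is near the background. Among the pairs that passed in both clusters, Igf2r for NZO/HlLtJ with oligodendrocytes and Irs2 for NOD/ShiLtJ with Drd2+ neurons and with oligodendrocytes were at an unadjusted p under 0.05. The Drd1+ libraries of PWK/PhJ, lowest in Igf1r, held the most oligodendrocyte marker RNA, as given above, and the oligodendrocytes of that strain the most Igf1r; the part of that RNA in the Igf1r values was not tested.

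**Figure D4:**
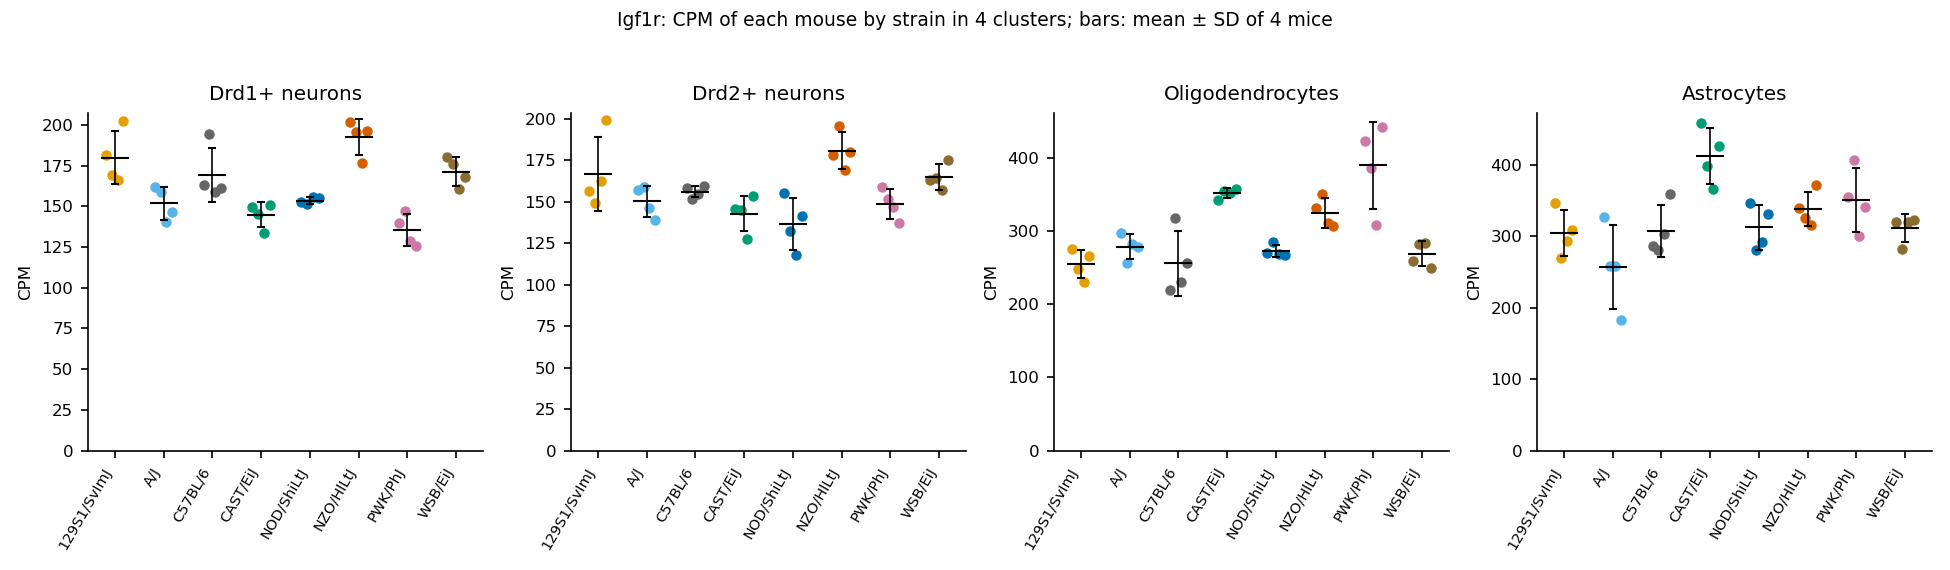
Igf1r CPM of each mouse (points, 4 per strain, in batch order from left to right) with the strain mean ± SD (bars) in Drd1+ neurons, Drd2+ neurons, oligodendrocytes and astrocytes, on separate axes from 0. PWK/PhJ is lowest in Drd1+ neurons and highest in oligodendrocytes, CAST/EiJ is highest in astrocytes, and NZO/HlLtJ is highest in both neuron clusters.

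The adaptors also differed in glia. CAST/EiJ oligodendrocytes held less Irs2 (38.1 ± 4.78 CPM, the lowest strain; -0.55 ± 0.18, adjusted p = 0.0209), more Irs1 (27.8 ± 8.07 CPM; 0.74 ± 0.26, 0.0374) and more Insr (162 ± 11.7 CPM; 0.33 ± 0.11, 0.0216). With Igf1r, 4 of 5 tested members were therefore called in that strain and cluster, 3 of them higher, where 17% of all genes tested were called. The strain term of Insr was not called in oligodendrocytes (adjusted p = 0.156). None of the 4 held when each batch was left out in turn. Irs2 was not called without batch 1, 3 or 4 (adjusted p = 0.151, 0.0576 and 0.125), Irs1 without batch 2 or 3 (0.351 and 0.0510) and Insr without batch 1 or 4 (0.0980 and 0.132). In macrophages Insr was lower in 129S1/SvImJ, at 72.6, 97.5, 68.6 and 96.3 CPM (83.7 ± 15.3) beside strain means of 125 to 174 CPM in the other strains. This was a difference of -0.82 ± 0.23 (adjusted p = 0.0152, with 5.13% of all genes called). It was not called without batch 1, 3 or 4 (0.109, 0.111 and 0.0733). The strain term of Insr was not called in macrophages (adjusted p = 0.106).

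Some strain values lie in clusters too small or genes too sparse to be fitted, and are given as counts. Lepr in endothelium stood at 77.8 CPM in CAST/EiJ (35 counts in 81 nuclei, 54.2 to 108) and at 9.60 to 29.4 CPM in the other 7 strains (4 to 15 counts each). In Chat+ interneurons it ranged from 12.4 CPM in CAST/EiJ (1 count, 0.315 to 69.3) to 131 CPM in WSB/EiJ (10 counts, 62.9 to 241), with 18.4 CPM in NZO/HlLtJ (2 counts, 2.23 to 66.4), and the intervals of these 3 strains overlapped. Irs2 in macrophages was seen with 1 count in the 4 NZO/HlLtJ mice together (0, 0, 7.11 and 0 CPM), and with 3 counts in CAST/EiJ (7.66 ± 9.98 CPM), 5 each in PWK/PhJ (8.90 ± 7.60) and WSB/EiJ (10.7 ± 10.4) and 8 in C57BL/6 (13.4 ± 14.7). It stood at 20.5 ± 15.2 CPM in NOD/ShiLtJ, 31.4 ± 7.93 in 129S1/SvImJ and 33.4 ± 14.2 in A/J, so a low level was shared by several strains. Igf1 in macrophages was 31.6, 26.5, 21.3 and 0 CPM in NZO/HlLtJ, from 8 counts in all (19.99 CPM, 8.63 to 39.4), and at most 8.03 CPM pooled in any other strain.

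The rest of the pathway was read from a list of 70 genes: ligands, IGF binding proteins, adaptors, PI3K-AKT-mTOR and FOXO genes, leptin and growth hormone signaling genes and their inhibitors. Of the other ligands, Ins1 and Lep had 1 and 5 counts in all annotated nuclei and Ins2 had 38, while Igf2 had 778 and stood at 508 CPM in fibroblasts. In Drd1+ neurons 52 list genes were tested and 37 had a strain term past the threshold (71.2%), beside 61.7% of all genes. The count was 31 of 48 in Drd2+ neurons (55.9% of all genes), 13 of 39 in oligodendrocytes (34.8%) and 9 of 36 in astrocytes (21.5%). In NZO/HlLtJ, Drd1+ neurons had 4 list genes higher and 3 lower, 13.5% of the 52 beside 19.7% of all genes, with a median log2 difference of 0.02 beside 0.01 over all genes tested. Drd2+ neurons had 4 higher and 3 lower (14.6%, beside 18.5%), oligodendrocytes 2 higher (5.13%, beside 8.19%) and astrocytes 2 lower (5.56%, beside 4.8%). In NOD/ShiLtJ the numbers higher and lower were 3 and 2 in Drd1+ neurons (9.62%, beside 15.9%; median -0.01) and 2 and 1 in Drd2+ neurons (6.25%, beside 12.1%). They were 2 and 2 in oligodendrocytes (10.3%, beside 9.36%) and 1 and 1 in astrocytes (5.56%, beside 3.96%). The list was thus called at shares below or near those of all genes in both strains.

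Downstream of the receptors in NZO/HlLtJ, Foxo3, a transcription factor that AKT holds inactive, fell in Drd1+ neurons (76.9 ± 7.12 CPM against 98.4 ± 15.8; -0.36 ± 0.07, adjusted p = 3.73e-04) and Drd2+ neurons (66.8 ± 2.94 against 94.7 ± 18.3; -0.48 ± 0.09, 6.38e-05). Gsk3b, a kinase that AKT inhibits, fell in Drd1+ neurons (-0.21 ± 0.05, adjusted p = 0.00110), Drd2+ neurons (-0.23 ± 0.06, 0.00239) and astrocytes (-0.37 ± 0.11, 0.0245). Stat5b, a factor downstream of growth hormone and other cytokine receptors, rose in Drd1+ (0.29 ± 0.07, adjusted p = 0.00268) and Drd2+ neurons (0.43 ± 0.08, 1.46e-04). The other genes that rose in Drd1+ neurons were Leprot, given above, and at low levels Foxo6, a FOXO transcription factor (0.84 ± 0.23, adjusted p = 0.00723), and the adaptor Sh2b2 (2.82 ± 0.603 CPM against 1.73 ± 1.82; 1.30 ± 0.42, 0.0219). Ptpn2, a phosphatase that acts on the insulin receptor and JAKs, fell in Drd1+ neurons (-0.35 ± 0.09, 0.00237). In Drd2+ neurons Leprot, the PI3K regulatory subunit Pik3r1 (0.27 ± 0.08, adjusted p = 0.0127) and the receptor phosphatase Ptprf (0.36 ± 0.13, 0.0478) also rose, and Leprotl1, a relative of Leprot, fell (-0.33 ± 0.11, 0.0275). Astrocytes of NZO/HlLtJ had lower Ghr, the growth hormone receptor (170 ± 22.6 CPM against 302 ± 88.5; -0.78 ± 0.14, adjusted p = 1.64e-04). Oligodendrocytes of NZO/HlLtJ had higher Enpp1 (0.75 ± 0.21, 0.00885) and Gab1 (0.26 ± 0.08, 0.0168).

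Of these NZO/HlLtJ differences, Foxo3 and Gsk3b in both neuron clusters, Ptpn2 in Drd1+ and Stat5b in Drd2+ neurons were called under all 11 alternatives tried. Stat5b in Drd1+ neurons (0.21, adjusted p = 0.229) and Ghr in astrocytes (-0.23, 0.9996) were lost with thinned libraries only. Foxo6 was not called without batch 1 (adjusted p = 0.0976), nor Sh2b2 without batch 2 or 4 (0.0551 and 0.161), and against the classical inbred strains only they were at 0.501 and 0.0679. Pik3r1 was not called without batch 1 or 3 (0.164 and 0.0934), Ptprf without batch 1, 2 or 3 (0.220, 0.0940 and 0.122) and Leprotl1 when any 1 batch was left out (0.0513 to 0.202). In glia, Gsk3b was not called in astrocytes without batch 1, 2 or 3 (0.0568, 0.220 and 0.0998), Enpp1 without batch 4 (0.102) and Gab1 without batch 2, 3 or 4 (0.131, 0.0951 and 0.179).

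In NOD/ShiLtJ, Foxo6 rose in Drd1+ neurons, where its 4 mice lay above all other 28 (11.4 ± 2.56 CPM against 3.68 ± 2.08; 1.76 ± 0.21, adjusted p = 2.50e-08), and in Drd2+ neurons (17.3 ± 1.98 CPM against 8.05 ± 3.04; 1.15 ± 0.15, 1.74e-07). Sh2b2 rose in Drd1+ neurons (4.26 ± 2.58 CPM against 1.52 ± 1.34; 1.98 ± 0.39, adjusted p = 2.47e-04). Stat3, which leptin receptors activate, rose in Drd1+ neurons (35.1 ± 3.48 CPM against 22.8 ± 4.31; 0.62 ± 0.11, adjusted p = 7.17e-05), Drd2+ neurons (0.50 ± 0.13, 0.00581) and oligodendrocytes (0.51 ± 0.15, 0.0132). Rictor, a subunit of mTORC2, and Akt2 fell in Drd1+ neurons (-0.24 ± 0.06, adjusted p = 0.00326, and -0.29 ± 0.08, 0.00935), and Leprot fell in Drd2+ neurons (9.50 ± 1.11 CPM against 14.9 ± 5.08; -0.61 ± 0.17, 0.00916). In oligodendrocytes Rictor fell (-0.32 ± 0.10, adjusted p = 0.0345), Ghr fell (5.22 ± 2.59 CPM against 17.1 ± 9.83; -1.41 ± 0.34, adjusted p = 0.00184) and the adaptor Grb14 rose (0.25 ± 0.07, 0.0172). In astrocytes Foxo1 fell (-0.53 ± 0.14, 0.0106) and the IGF binding protein gene Igfbp5 rose (0.80 ± 0.22, 0.0461). Of these NOD/ShiLtJ differences, Foxo6 in both neuron clusters and Stat3 and Sh2b2 in Drd1+ neurons were called under every alternative that gave a value (11, and 10 for Sh2b2). Rictor in Drd1+ neurons was not called without batch 3 (adjusted p = 0.0574), Akt2 without batch 1 or 4 (0.0584 and 0.0747), Stat3 in Drd2+ neurons without batch 2 or 3 (0.0667 and 0.0737) and Leprot without batch 1 or 4 (0.0524 and 0.112). In oligodendrocytes Ghr was not called against the classical inbred strains only (-0.97, 0.122), Stat3 without batch 1 or 4 (0.281 and 0.127) and Grb14 without batch 1, 2 or 4 (0.134, 0.0614 and 0.105). Rictor there was not called without batch 1, 2 or 4 (0.431, 0.157 and 0.0526) and reversed to 0.27 with thinned libraries. In astrocytes Foxo1 was not called without batch 2 or 4 (0.119 and 0.192), nor Igfbp5 when any 1 batch was left out (0.0896 to 0.439).

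Apart from Foxo6 in Drd1+ neurons of NOD/ShiLtJ, each of these differences in NZO/HlLtJ or NOD/ShiLtJ had mice inside the range of the other strains.

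Jak2 in oligodendrocytes and Leprot in Drd1+ neurons had their highest and lowest means in other strains. Jak2, the kinase bound to the leptin and growth hormone receptors, stood at 427 ± 37.0 CPM in oligodendrocytes of CAST/EiJ and 127 ± 15.8 CPM in those of 129S1/SvImJ (strain term, adjusted p = 6.13e-28). Leprot in Drd1+ neurons stood at 25.1 ± 5.87 CPM in PWK/PhJ and 8.78 ± 1.87 CPM in 129S1/SvImJ (9.01e-10). The submitters' processing notes name 1 mouse genome for all strains, and whether sequence differences of the strains from it change their counts was not tested.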

How the data were processed

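Nuclei of frozen striatum were pooled in 4 batches, each with 1 mouse of each of 8 strains. Per the deposited descriptions, the authors assigned strains with Demuxlet, filtered nuclei by detected genes and mitochondrial share, removed doublets with DoubletFinder and annotated clusters. Those calls were used as deposited, and nuclei without a cluster were left out. The deposited matrices hold raw UMI counts per gene and nucleus. Cell Ranger ARC 2.0.0, bcl2fastq 2.20.0.422 and the builds mm10 and GRCm38 are named per the submitters' processing notes; counting strand and peak caller are not given in the sources used here. Cluster and strain labels (categories) and peak positions are other deposited values, used as the authors gave them.

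Counts were summed per mouse and cluster for libraries of at least 10 nuclei. The libraries held 1710451 to 9416806 counts in Drd1+ neurons, 1251786 to 6803437 in Drd2+ neurons, 165465 to 1883033 in oligodendrocytes, 38252 to 1085998 in astrocytes and 27325 to 365425 in macrophages. CPM are counts scaled to a library total of 1000000. Tests used edgeR 4.0.16 (R 4.3.3; TMM scaling, filterByExpr by strain, robust quasi-likelihood fit) with strain and batch as terms: the strain term, each strain against the mean of the other 7, and the interaction of strain and cluster with the mouse as a block. Fold changes come from the fit. The Benjamini-Hochberg adjustment ran over all genes of a cluster within each comparison, and not over the comparisons of single strains. The 4 mice of a strain are separate animals per the labels' batches, and their spread includes that between batches. Alternatives included DESeq2 1.42.0 and leaving out each batch; those for the 6 strains other than NZO/HlLtJ and NOD/ShiLtJ were chosen after seeing the data. The scripts were tested on simulated data. Poisson and Wilson intervals are 95% and cover counting error only, as do floors of 3 counts.

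The batch was kept as a block because the labels make it a shared pool. In Drd1+ neurons, over 11116 genes, deviations from the strain means correlated at a median of 0.17 between mice of the same batch (lowest -0.238; 75 of 112 pairs over 0.1) and -0.0691 between others. Named pathway genes were the called genes with the smallest adjusted p and at least 10 CPM, up to 6 per contrast in Drd1+ neurons and 3 elsewhere; others called for NZO/HlLtJ or NOD/ShiLtJ (Foxo6, Sh2b2, Pik3r1, Ptprf, Leprotl1 and Rictor in oligodendrocytes) were named after their values were seen, and some results of the list are not reported here. The members, gene lists and marker lists were chosen with earlier results of these data known. The labels give C57BL/6 with differing substrain names, so none is printed.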

Additional observations from a re-analysis of the deposited data

Results flagged for a closer look

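Among 88 groups of 4 mice (a gene, a cluster and a strain), 9 had 1 mouse whose gap to the nearest of the others took more of the group's range than Dixon's 95% limit allows; chance gives about 1 in 20. In Drd1+ neurons these were Igf1r in the C57BL/6 mouse of batch 2 (194 CPM, the others 159 to 163), Insr in the NOD/ShiLtJ mouse of batch 1 (69.8 CPM, the others 81.7 to 83.0) and Irs2 in the CAST/EiJ mouse of batch 3 (8.14 CPM, the others 14.3 to 15.3). In Drd2+ neurons they were Lepr in the 129S1/SvImJ mouse of batch 4 (3.18 CPM, the others 1.43 to 1.66) and in the C57BL/6 mouse of batch 2 (3.16 CPM, the others 1.12 to 1.29), and Insr in the PWK/PhJ mouse of batch 3 (75.1 CPM, the others 63.1 to 64.9). In glia they were Irs1 in oligodendrocytes of the 129S1/SvImJ mouse of batch 2 (28.4 CPM, the others 18.1 to 19.5), Igf1r in oligodendrocytes of the NOD/ShiLtJ mouse of batch 2 (284 CPM, the others 268 to 269.9) and Igf1r in astrocytes of the WSB/EiJ mouse of batch 2 (282 CPM, the others 319.7 to 323). The 88 groups were those of the pairs of gene and cluster whose strain term was called, and the other tested pairs were not examined. That every flag lies in a called pair was therefore fixed in advance. Igf2r was not among the genes examined and could not be flagged. In Drd2+ neurons of C57BL/6 it stood at 14.5 CPM in the mouse of batch 2 and at 17.3 to 17.4 CPM in the others, a gap over the same limit. In Drd1+ neurons of NZO/HlLtJ it ranged from 16.4 to 22.3 CPM (mean 20.7), and the gap below the others of its lowest mouse was also over that limit. None of the 9 flagged mice is of NZO/HlLtJ, but this covers the 88 groups only and leaves out such Igf2r values.

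Strain effects differed between cell types, by edgeR's test of the interaction, in 4 pairs whose gene passed the filter on low counts in both clusters. Against Drd1+ neurons these were Igf1r and Irs2 in oligodendrocytes (adjusted p = 2.11e-07 and 9.29e-04) and Igf1r and Irs1 in astrocytes (0.00136 and 0.0471). The fit also gave an adjusted p of 0.00162 for Irs2 in macrophages, but Irs2 did not pass the filter there and rests on 1 to 27 counts per strain, so this value is not read as a difference between cell types.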

How the results depend on the processing

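Of 55 single results of the members, 11 kept their direction and side of the threshold under every alternative tried, as did 10 of the 32 calls of list genes (counted per gene, cluster and strain) for NZO/HlLtJ or NOD/ShiLtJ. With every library thinned to the counts of the shallowest mouse, the number of called pairs of gene and cluster was 3 in place of 11 for the strain term, 2 in place of 5 for NZO/HlLtJ and 0 in place of 2 for NOD/ShiLtJ. In the same setting 5139, 1283 and 1008 of all Drd1+ genes were called in place of 8290, 2647 and 2134, and in astrocytes, at 38252 counts per mouse, the Igf1r differences reversed to 0.16 in A/J and -0.98 in CAST/EiJ, as did Rictor in oligodendrocytes of NOD/ShiLtJ (0.27); fewer counts enter this setting by construction. Leaving out 1 batch at a time gave 9 to 12 pairs for the strain term, 2 to 5 for NZO/HlLtJ, 0 to 2 for NOD/ShiLtJ and 3 to 4 for the interaction (5 with all batches, over all 22 pairs). It gave 1751 to 2428 Drd1+ genes for NZO/HlLtJ and 1364 to 1636 for NOD/ShiLtJ, and a Lepr mean in Chat+ interneurons of 27.6 to 70.1 CPM. Without the replicate block (the batch term), 10 pairs were called for the strain term, 3 for NZO/HlLtJ, 2 for NOD/ShiLtJ and 4 for the interaction. DESeq2 called 11, 4 and 2 pairs. Lepr rested on 2 to 8 counts per mouse in Drd1+ neurons of NZO/HlLtJ and 1 to 8 in those of CAST/EiJ, which limits its precision. The sex of each mouse was not modelled, Airn and Igf2r reads may be shared, and the effect of aligning all strains to 1 reference was not tested.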

Other observations

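Lepr in the excitatory Slc17a7+ neurons, which were too unevenly spread over mice to be fitted, also varied between strains. It stood at 20.7 CPM in PWK/PhJ (15 counts, 11.6 to 34.1) and 9.56 CPM in NOD/ShiLtJ (15 counts, 5.35 to 15.8), while no count was seen among 1063398 in CAST/EiJ. Exact Poisson intervals of PWK/PhJ and CAST/EiJ did not overlap, and those cover counting error only. In the second Slc17a7+ cluster CAST/EiJ stood at 29.9 CPM (11 counts, 14.9 to 53.5) and PWK/PhJ at 2.79 CPM (1 count, 0.0706 to 15.5), so the order of these strains was the opposite there. These strains and clusters were picked after their values were seen, and the difference was not tested.

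Irs1 in fibroblasts ranged from 0 counts in WSB/EiJ (10 nuclei) and 46.1 CPM in CAST/EiJ (1 count, 1.17 to 257) to 306 CPM in C57BL/6 (8 counts, 132 to 603), and the intervals of all strains with a count overlapped.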
